A study of Mus musculus with 25 samples.

Results

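Dimethylated and trimethylated lysine 79 of histone H3 (H3K79me2 and H3K79me3) were compared in wild-type (WT) mouse embryonic stem cells (mESCs). The members were the 4 WT peak lists of the series, 2 replicate libraries for each mark, out of 25 samples in all. The H3K79me2 lists held 66834 and 64084 peaks, and the H3K79me3 lists held 19800 and 7338. All 4 libraries came from untreated mESCs of strain v6.5, were cross-linked with formaldehyde, and were precipitated with the Abcam antibodies ab3594 for H3K79me2 and ab2621 for H3K79me3. The peak lists of untreated v6.5 mESCs with the genotype Dot1L KO (knockout) served as background, and RNA libraries of the same genotypes (3 WT, 2 KO, also untreated v6.5 mESCs) gave the response of the marked genes. The labels do not say whether replicates came from separate cultures or whether the KO cells were 1 clone, so p-values measure the spread between these libraries, which may be technical.

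Lysine 79 lies on the globular face of the nucleosome and not on the histone tail. DOT1L is the main enzyme known to methylate it, and it adds methyl groups one after another, so the dimethyl form is made on the way to the trimethyl form. Both forms are known from the first part of the bodies of actively transcribed genes, where DOT1L works with factors of transcription elongation.

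The KO lists held 16 and 12 peaks for H3K79me2 and 178 and 328 for H3K79me3. Of the WT peaks, 0.019 and 0.023% of H3K79me2 and 1.79 and 3.16% of H3K79me3 overlapped a KO peak of the same mark. All 8 mESC markers on the list (Pou5f1, Nanog, Sox2, Esrrb, Zfp42, Dppa5a, Utf1 and Tdgf1) carried both marks, and all 7 fibroblast markers carried neither. RNA of the 7 fibroblast markers was nevertheless present, with a summed level of 195.4, 182.8 and 153.0 CPM (counts scaled to a common library total) in the WT libraries and 242.0 and 194.1 CPM in the KO libraries. The summed levels overlapped, 3 of the 7 markers were above the WT range in both KO libraries and 0 were below it, and their part in the RNA results was not tested. Of 4 neural markers, Nes and Tubb3 carried H3K79me2, Sox1 carried H3K79me3 and Pax6 carried neither. None of the 4 endoderm markers carried a mark in both lists, but Gata6, Gata4 and Sox17 had H3K79me3 in replicate 1. The peak lists give no read counts, so depth is unknown. With 2 libraries a mark, no exact test between marks can give a 2-sided p below 0.33, so no test was made and the gap between marks is read against the gap between replicates. Antibody, efficiency of precipitation, depth and mark cannot be told apart.

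A protein-coding gene was called marked when its body overlapped at least 1 bp of a peak in each of the 2 WT lists of the mark. Promoters of genes in 4 classes are shown because the classes differed in promoter sequence. The sequences are from RefSeq (GRCm38.p6), are written 5′ to 3′ on the gene's strand, and cover the 250 bases before the start that the promoter table gives. For Ankrd11 and Tmem267 these bases end next to the annotated gene. For Ptprg the last 113 of them, and for Gata1 all 250, lie inside the gene body as annotated, which begins at another start. Capitals mark the dinucleotide CpG.

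Ptprg (H3K79me2 alone; chr14:11553303-11553552, plus strand): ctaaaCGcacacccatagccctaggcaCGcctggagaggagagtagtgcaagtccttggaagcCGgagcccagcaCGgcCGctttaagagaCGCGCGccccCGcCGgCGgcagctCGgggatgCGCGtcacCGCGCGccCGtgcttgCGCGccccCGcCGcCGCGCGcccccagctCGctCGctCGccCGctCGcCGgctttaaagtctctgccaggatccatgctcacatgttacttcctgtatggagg

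Ankrd11 (both; chr8:123042285-123042534, minus strand): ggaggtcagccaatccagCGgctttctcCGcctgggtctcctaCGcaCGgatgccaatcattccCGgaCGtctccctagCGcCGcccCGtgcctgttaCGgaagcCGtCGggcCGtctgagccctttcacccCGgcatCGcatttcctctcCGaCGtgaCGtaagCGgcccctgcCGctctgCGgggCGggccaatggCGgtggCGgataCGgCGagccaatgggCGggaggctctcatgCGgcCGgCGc

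Tmem267 (H3K79me3 alone; chr13:119487836-119488085, plus strand): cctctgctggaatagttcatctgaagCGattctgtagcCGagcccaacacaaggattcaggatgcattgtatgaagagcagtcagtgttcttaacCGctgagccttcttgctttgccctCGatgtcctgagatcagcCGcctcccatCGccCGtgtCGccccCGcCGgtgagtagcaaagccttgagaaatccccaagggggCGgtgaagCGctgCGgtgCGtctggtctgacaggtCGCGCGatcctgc

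Gata1 (neither; chrX:7967911-7968160, minus strand): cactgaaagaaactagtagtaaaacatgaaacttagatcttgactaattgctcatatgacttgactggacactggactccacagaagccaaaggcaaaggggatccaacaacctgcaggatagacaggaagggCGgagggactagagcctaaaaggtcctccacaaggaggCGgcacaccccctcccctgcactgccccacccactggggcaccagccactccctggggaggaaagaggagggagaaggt

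Ptprg, a receptor tyrosine phosphatase gene, had 31 CpG in these bases, and Ankrd11, which encodes a large chromatin regulator, had 30. Tmem267 had 17, and Gata1, a transcription factor gene of blood cells, had 2. Over the 300 bases from 250 before to 50 after the start, the median number of CpG was 22 for 5243 promoters with H3K79me2 alone, 25 for 1432 with both marks, 16 for 280 with H3K79me3 alone and 6 for 10537 with neither. The shares called CpG-rich (an observed to expected ratio of at least 0.6 and at least 50% G and C) were 76.0, 80.8, 51.8 and 25.8%, against 45.8% of all 17492 promoters. CCGGAAG, the core of an ETS motif, was found on either strand in 23.3% of promoters with H3K79me2 alone and 19.6% with both marks, but in 3.93% with H3K79me3 alone, 5.41% with neither and 11.9% of all promoters. TATAAA was found on either strand in 5.55, 7.12, 9.29 and 18.2% of the 4 classes in the same order, and in 13.3% of all promoters. A match describes the letters in the window and is not a bound site.

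H3K79me2 formed long domains and H3K79me3 short ones. Peaks of a list at most 1 kb apart were joined into domains. H3K79me2 gave 24934 and 24337 domains with 72.5 and 67.2 Mb in peaks, and H3K79me3 gave 12664 and 4763 with 9.27 and 3.61 Mb in peaks. The median domain was 1189 and 1181 bp for H3K79me2 (mean 1185 bp ± 5.66, SD, n = 2) and 409 and 374 bp for H3K79me3 (391.5 bp ± 24.7, SD, n = 2). The ratio of the means was 3.03, and within replicate numbers it was 2.91 and 3.16. The gap between the marks was far larger than that between replicates of either mark, although the number of H3K79me3 peaks itself differed between its 2 libraries.

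The difference was larger in the upper tail. The domain at the 90th percentile was 8962 and 8504 bp for H3K79me2 and 2150 and 2210 bp for H3K79me3. Domains of at least 5 kb were 18.8 and 18.1% of H3K79me2 domains and held 70.7 and 68.9% of the sequence in domains. They were 2.05 and 2.44% of H3K79me3 domains and held 17.9 and 20.2%. Before joining, the median peaks were 498 and 503 bp against 318 and 316.5 bp, a ratio of 1.58. The ratio was 6.49 with peaks up to 3 kb apart joined and 7.94 with equal numbers of highest-scoring peaks, so its size rests on joining and on list length, while H3K79me2 was the longer under each. In the curves of domain length, replicates of a mark lay close together and the marks lay apart over most of the range.

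**Figure D1:**
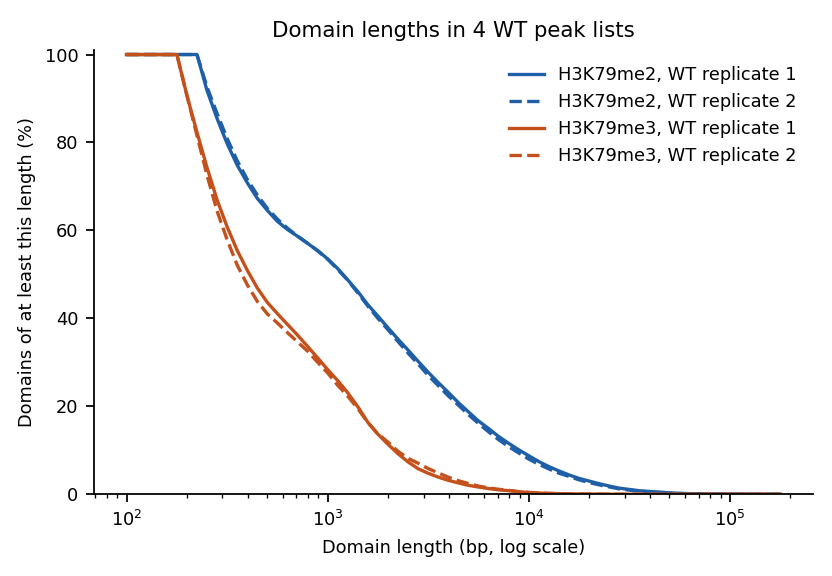
Share of domains (vertical axis, percent) of at least a given length (horizontal axis, bp, log scale) in each of the 4 WT lists, with peaks at most 1 kb apart joined. Solid and dashed lines are replicates 1 and 2; medians were 1189 and 1181 bp for H3K79me2 and 409 and 374 bp for H3K79me3.

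A domain found in both lists is given by its span over the 2 lists together, which can exceed the domain of either list. The longest H3K79me2 domains found in both lists lay over single genes. That of Ankrd11 (chr8:122899692-123045863) spanned 146.2 kb, that of Tead1 (chr7:112679754-112822805), which encodes a DNA-binding factor of Hippo signalling, spanned 143.1 kb, and that of Jarid2 (chr13:44731414-44869073), which encodes a cofactor of Polycomb repressive complex 2 (PRC2), spanned 137.7 kb. The longest single domains in replicates 1 and 2 were 146172 and 136288 bp at Ankrd11 and 137660 and 136992 bp at Jarid2. At Tead1 they were 68094 and 108378 bp, so neither list alone held a domain of the full span. None of these spans overlapped a KO peak of either mark. Within the Jarid2 domain, H3K79me3 covered 28506 and 14354 bp in replicates 1 and 2. Within the Ankrd11 domain it covered 6628 and 3447 bp, and within the Tead1 domain 1218 and 0 bp. The span of H3K79me2 over both lists thus did not order the amount of H3K79me3 among these genes. The longest single domains of replicate 2 were in the same order as H3K79me3.

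The 3 longest H3K79me3 domains found in both lists lay in 1 stretch of chromosome 8 with no protein-coding gene and no H3K79me2 peak. Over both lists together they spanned 32.4 kb (chr8:123565257-123597629), 26.8 kb (chr8:123537399-123564214) and 25.2 kb (chr8:123598954-123624154). In replicate 1 the longest single domains within them were 30756, 26816 and 25201 bp. In replicate 2 they were only 6298, 9527 and 19359 bp. The annotation places the tandem array of 5S ribosomal RNA genes there, transcribed by RNA polymerase III. Of 41 genes of this array named n-R5s, 37 in replicate 1 and 27 in replicate 2 overlapped an H3K79me3 peak, and 0 overlapped an H3K79me2 peak in either list. The KO H3K79me3 lists covered 569 and 228 bp of the first of these domains, 370 and 0 bp of the second, and 0 and 844 bp of the third. How reads were placed among these repeated copies is not given in the sources used here, so the values of single copies are uncertain.

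Median fold enrichment over background, the authors' own value per peak, was close for both marks. It was 3.78 and 3.75 for H3K79me2 and 3.93 and 4.34 for H3K79me3. The difference between the means (3.76 ± 0.017 against 4.14 ± 0.29, SD, n = 2) was smaller than the gap between the 2 H3K79me3 libraries. Lists of such different lengths reach to different depths of signal: when each list was limited to its 7338 highest-scoring peaks, the medians were 6.90 and 6.72 for H3K79me2 and 4.80 and 4.34 for H3K79me3, so the order turned. KO peaks had medians of 3.81 and 4.61 for H3K79me2 and 4.11 and 4.45 for H3K79me3, so a median in this range does not set WT peaks apart.

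Longer peaks had higher enrichment over most of the range. For H3K79me2, the median went from 3.34 and 3.39 in peaks under 500 bp to 9.61 and 9.42 in peaks of at least 10 kb. For H3K79me3 it went from 3.71 and 4.15 under 500 bp to 7.39 and 7.67 in peaks of 2 to 5 kb and 10.6 and 10.3 in the 21 and 11 peaks of 5 to 10 kb. Replicate 1 had 3 H3K79me3 peaks of at least 10 kb, with a median of 9.49, and replicate 2 had none. The rank correlation of length and enrichment over peaks, which share their library and are not independent, was 0.640 and 0.621 for H3K79me2 and 0.389 and 0.365 for H3K79me3.

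Among domains of at least 1 kb found in both lists, the 3 with the highest H3K79me2 enrichment were at Hnrnpf (20.6 and 17.4 fold), Ptbp1 (17.2 and 20.4 fold) and Srsf3 (18.7 and 18.3 fold), which encode splicing regulators. For H3K79me3 the highest were at Ptma (17.9 and 16.2 fold), which encodes the acidic nuclear protein prothymosin alpha, at Sfpq (14.3 and 15.5 fold), a splicing factor gene, and at Brd2 (17.4 and 12.4 fold), which encodes a reader of acetylated histones. All 6 genes carried both marks. At Ptma (chr1:86526766-86530107) the marks covered nearly the same sequence. There 3323 and 3335 bp of H3K79me2 lay inside an H3K79me3 domain that spanned 3342 bp over both lists.

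H3K79me2 was almost wholly genic and H3K79me3 less so. Of the covered sequence, 95.8 and 95.9% of H3K79me2 and 67.5 and 75.4% of H3K79me3 lay in protein-coding genes, a difference of 24.4 percentage points between means. Outside any annotated gene lay 2.51 and 2.39% of H3K79me2 and 27.2 and 19.3% of H3K79me3, against 60.5 and 43.6% of KO H3K79me3. The Y chromosome held 0.013 and 0.010% of H3K79me2 sequence and 0.888 and 1.57% of H3K79me3 sequence, while KO H3K79me3 had 19.6 and 12.2% there. The X chromosome held 2.41 and 2.38% of H3K79me2 and 5.07 and 4.29% of H3K79me3.

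Within genes, H3K79me3 lay nearer the start. Distances were taken from the annotated gene start in 14493 protein-coding genes with a known strand that overlap no other protein-coding gene. The first 5 kb held 28.7 and 29.0% of in-gene H3K79me2 sequence and 57.3 and 62.1% of in-gene H3K79me3 sequence, and the first 1 kb held 3.77 and 3.63% against 21.0 and 16.4%. The start in the promoter table lay over 1 kb from the annotated one in 1314 of these genes (9.07%). In the 11419 genes where both lay within 100 bp, the first 5 kb held 33.5 and 33.9% of H3K79me2 against 61.9 and 66.5% of H3K79me3. In genes of at least 20 kb only, the first 5 kb held 20.5 and 20.8% against 44.5 and 48.3%. Among the 1000 highest-scoring peaks of each list, those with a summit in a single gene had it at a median of 2692 and 2873 bp after the start for H3K79me2 and 1598 and 1926 bp for H3K79me3.

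The same held in the same genes. In 667 genes of at least 20 kb with both marks, H3K79me2 coverage was highest at 3 to 3.5 kb and 2.5 to 3 kb after the start in replicates 1 and 2, at 80.2 and 77.9%, and fell below 50% of that level only at 19.5 and 19 kb. H3K79me3 coverage was highest at 1 to 1.5 kb in both, at 38.9 and 26.4%, and fell below 50% of that level at 4 and 3.5 kb. The last 500 bp before the start were little covered by either mark, at 3.24 and 2.52% for H3K79me2 and 0.89 and 0.082% for H3K79me3. Replicates gave the same shape and position, while the height for H3K79me3 differed between them.

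**Figure D2:**
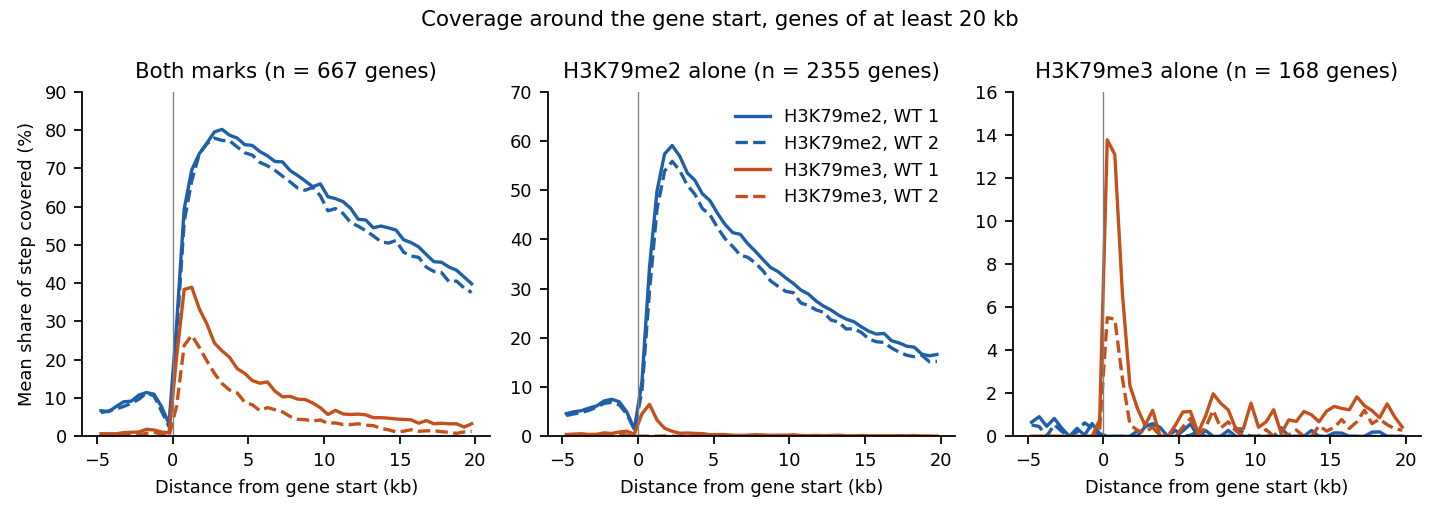
Mean share of each 500 bp step covered by peaks (vertical axis, percent, with a different scale in each panel) against distance from the gene start (horizontal axis, kb), in genes of at least 20 kb of 3 classes. Lines are single WT libraries; in genes with both marks H3K79me2 is highest at 80.2 and 77.9%, about 3 kb after the start, and H3K79me3 at 38.9 and 26.4%, 1 to 1.5 kb after it.

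Of 1160 genes with both marks in which distances could be taken, H3K79me2 reached farther from the start than H3K79me3 in 1014 in replicate 1 and in 1045 in replicate 2. The median reach was 15.8 and 15.2 kb for H3K79me2 and 4.61 and 3.04 kb for H3K79me3. Over all 1798 genes with both marks, H3K79me2 covered more bases in 1711 and 1764, with a median ratio of 4.71 and 8.31. The H3K79me2 lists hold more sequence (72.5 and 67.2 Mb against 9.27 and 3.61 Mb), which by itself favours farther reach and wider cover. Reach and cover were not repeated with equal numbers of peaks, so the part of list size was not tested. Of all H3K79me3 sequence, 49.5 and 66.7% lay under an H3K79me2 peak of the same replicate number, while 6.33 and 3.58% of H3K79me2 sequence lay under H3K79me3.

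H3K79me2 marked 8233 of 21887 protein-coding genes (37.6%) and H3K79me3 marked 2179 (9.96%). Both marks were on 1798 genes, which were 82.5% of the H3K79me3-marked genes (Wilson 95% interval 80.9 to 84.1) and 21.8% of the H3K79me2-marked genes. H3K79me2 alone was on 6435 genes, H3K79me3 alone on 381 and neither on 13273. The H3K79me3 numbers rest on the shorter list of replicate 2: the list of replicate 1 alone touched 5256 genes, of which 68.9% carried H3K79me2, and that of replicate 2 touched 2251, of which 83.3% did. Of the 6435 genes called H3K79me2 alone, 1748 had H3K79me3 in replicate 1 only and 52 in replicate 2 only, so "alone" means not called in both lists. Of the 381 genes with H3K79me3 alone, 341 had no H3K79me2 peak in either list. With at least 500 bp of a mark required in each list, 1262 genes carried H3K79me3, and 92.2% of them carried H3K79me2. Without peaks that overlap a KO peak, 2123 genes carried H3K79me3, and 83.9% of them carried H3K79me2. Some calls of H3K79me3 alone thus rest on peaks also called in KO.

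H3K79me3 was more frequent among genes with stronger H3K79me2. Ranked by their highest H3K79me2 enrichment and split into 5 groups of equal size, H3K79me2-marked genes carried H3K79me3 in 4.74, 7.90, 12.0, 22.9 and 61.6% of genes, from lowest to highest. Ranked by covered H3K79me2 sequence, the shares were 5.53, 12.2, 20.7, 28.3 and 42.5%. Ranked by gene length they were 24.2, 20.4, 21.2, 21.1 and 22.3%, so length alone did not order them. These shares describe the lists and carry no test, since both marks were called in the same cells and depend on local signal.

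**Figure D3:**
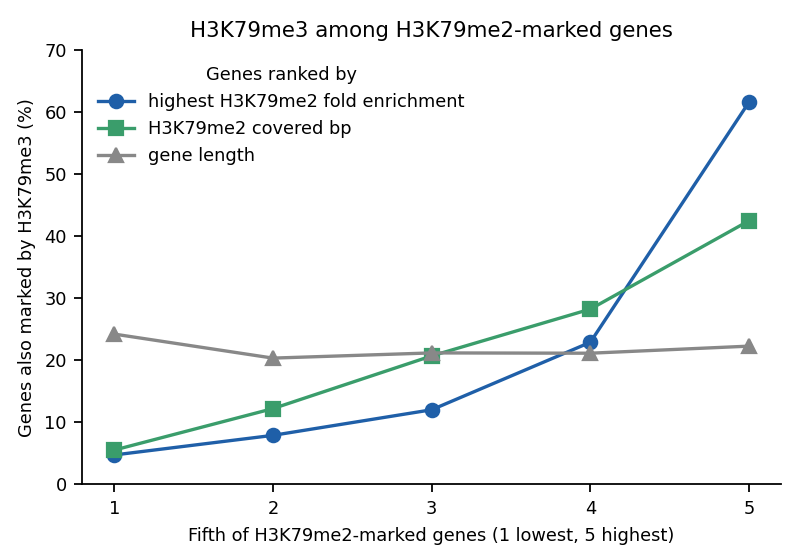
Share of H3K79me2-marked genes that also carried H3K79me3 (vertical axis, percent) in 5 groups of 1646 or 1647 genes (horizontal axis, 1 lowest to 5 highest), ranked by highest H3K79me2 enrichment, covered H3K79me2 bases or gene length. The share rises from 4.74 to 61.6% with enrichment and from 5.53 to 42.5% with covered bases, and stays between 20.4 and 24.2% with gene length.

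The genes with the most H3K79me2 were Jarid2 (158096 and 149307 bp), Ptprg (155568 and 144409 bp), Med13l (148396 and 144512 bp), which encodes a subunit of the Mediator kinase module, Ankrd11 (143902 and 141403 bp) and Tead1 (142430 and 134033 bp). Only Jarid2 among these 5 was also among the 5 with the most H3K79me3. It had 28786 and 14354 bp of H3K79me3, the most of any gene. Others among them were Zfp808 (22287 and 18318 bp), Trim24 (21177 and 16801 bp), which encodes a reader of histone marks, and Zfp978 (23996 and 13162 bp). Zfp808 and Zfp978 belong to zinc finger families with near-identical copies, so their peaks are uncertain.

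Of 767 genes with both marks and at least 1 kb of H3K79me3 in each list, 26 had more H3K79me3 than H3K79me2, and the median ratio of H3K79me3 to H3K79me2 bases was 0.298. The highest ratio was at Pou3f1, a POU factor gene of epiblast and neural cells, with 2541 and 1629 bp of H3K79me3 and 258 and 367 bp of H3K79me2. The next were Nek1 (2732 and 1790 bp against 678 and 278 bp), a kinase gene, Sntg1 (5916 and 2313 bp against 1040 and 1619 bp), Haus4 (3595 and 1739 bp against 812 and 1475 bp), a gene of the mitotic spindle, and Pigk (1702 and 1023 bp against 741 and 586 bp), a gene of membrane anchoring. At each of these 5 genes replicate 1 had more H3K79me3 than replicate 2.

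By function, H3K79me2 was on nearly all genes of the basic machinery of the cell, whereas H3K79me3 divided them. Counts of 28 lists are read against the 37.6 and 9.96% of all protein-coding genes, and no test was made. Of 81 cytosolic ribosomal protein genes, 81 carried H3K79me2 and 79 carried H3K79me3. Rps15a had 8572 and 8298 bp of H3K79me2 and 6459 and 5926 bp of H3K79me3, and Rps24 had 5947 and 5635 bp against 3333 and 2784 bp. Of 39 SR and hnRNP splicing factor genes, 38 and 34 carried the 2 marks in that order. Of 38 translation factor genes the counts were 38 and 30, of 27 chaperone genes 27 and 22, and of 19 glycolysis genes 18 and 15. Hnrnpf, Tra2b, Eif4h, Dnajb6 and Pfkp were among their members with the most H3K79me3, at 10589 and 8585, 9321 and 8477, 6720 and 5083, 7215 and 4998, and 12407 and 8707 bp in replicates 1 and 2.

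Other housekeeping lists carried H3K79me2 as often and H3K79me3 less often. Of 76 nuclear genes of the respiratory chain, 75 carried H3K79me2 and 15 carried H3K79me3. The counts were 31 and 11 of 31 proteasome genes, 20 and 7 of 20 aminoacyl tRNA synthetase genes, and 36 and 11 of 37 DNA replication genes. These H3K79me3 counts turn on the shorter list. Replicate 1 alone touched 33 respiratory chain, 18 proteasome, 13 synthetase and 23 DNA replication genes. It touched 81 ribosomal protein, 37 splicing factor, 35 translation factor, 27 chaperone and 16 glycolysis genes. The split was thus smaller there, in the same direction. The median H3K79me2 cover was 3344 and 2749 bp in respiratory chain genes and 2291 and 2188 bp in ribosomal protein genes. Ribosomal protein genes are the shorter, and H3K79me2 covered a median of 78.3 and 73.2% of their bodies against 53.5 and 48.7% of those of the respiratory chain. Atp5b, which encodes the beta subunit of ATP synthase, had 2093 and 1485 bp of H3K79me3, the most among respiratory chain genes by the mean of both lists.

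All 18 genes of the MLL and SET1 complexes, which methylate lysine 4 of histone H3, carried H3K79me2 and 7 carried H3K79me3. Among 31 Polycomb genes 23 and 12 were marked, with Rybp (13973 and 8561 bp of H3K79me3) and Mtf2 (10470 and 8412 bp) next to Jarid2. Of 34 genes of the DOT1L complex and elongation factors, 31 and 9 were marked. Among them Tcea1, which encodes the elongation factor TFIIS, had 4351 and 1159 bp of H3K79me3, and Ccnt2, which encodes a cyclin of the elongation kinase P-TEFb, had 2545 and 1783 bp. Dot1l itself carried H3K79me2 (11815 and 10391 bp), and H3K79me3 in replicate 1 only (972 and 0 bp). All 15 genes of DNA methylation and its removal carried H3K79me2 and 9 carried H3K79me3, with 8524 and 3547 bp at Tet1, which encodes an oxidase of methylcytosine. Of 27 remodeller genes 23 and 7 were marked, and of 35 cyclin and cyclin-dependent kinase genes 31 and 17.

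Pluripotency genes carried both marks more often than most lists. Of 38, 37 carried H3K79me2 and 24 carried H3K79me3. Trim71, which encodes a regulator of stem cell mRNAs, had 16491 and 8111 bp of H3K79me3, Esrrb 14676 and 6328 bp, and Mybl2 6458 and 4214 bp. At Sox2 the 2 marks covered like amounts, with 1851 and 1631 bp of H3K79me2 and 1891 and 1465 bp of H3K79me3, and at Pou5f1 H3K79me2 covered 3380 and 3839 bp and H3K79me3 2758 and 2388 bp.

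Few genes of the lineage factor and Hox lists carried H3K79me2 in both lists, at 7.02 and 0% against 37.6% of all genes. Of 57 lineage transcription factor genes, 4 carried H3K79me2 and 7 carried H3K79me3, 5 of them without H3K79me2 in both lists. Sox1, a neural factor gene, had 1160 and 1031 bp of H3K79me3 and 0 bp of H3K79me2. Of 39 Hox genes 0 carried H3K79me2 and 3 carried H3K79me3 (Hoxa3, Hoxa5 and Hoxd8, the first 2 sharing 221 bp in replicate 2). Of 40 genes of neuronal adhesion and synapses, which are very long, 5 carried H3K79me2 and 11 carried H3K79me3, 9 of them without H3K79me2, such as Gabrg3, a subunit gene of a GABA receptor, with 1916 and 477 bp. The list of replicate 1 alone touched 29 of the 57 lineage factor genes, 17 of the 39 Hox genes and 24 of the 40 neuronal genes, so these counts turn on the shorter list. The H3K79me3 shares of lineage factor and Hox genes, 12.3 and 7.69%, lie near the 9.96% of all genes and are not a result about these lists.

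Of 1106 olfactory receptor genes 0 and 1 were marked, and of 353 vomeronasal receptor genes 0 and 3. None of 70 replication-dependent histone genes or 49 keratin genes had either mark in both lists. Histone genes are strongly transcribed during DNA replication but are very short, with a median length of 0.498 kb. Of 38 germline and meiosis genes 6 carried H3K79me2 and 1 carried H3K79me3, Mov10l1, which encodes a helicase of the piRNA pathway. Of 14 genes of the 2-cell stage 1 and 2 were marked. The H3K79me3 share, 14.3% of so few genes, lies near the 9.96% of all genes. Duxf3, a copy of the factor that opens the 2-cell program, had 1443 and 1199 bp of H3K79me3 and 0 bp of H3K79me2, and lies in an array of near-identical copies. Of 57 clustered protocadherin genes 21 and 11 were marked (36.8 and 19.3%), but their annotated bodies overlap and share peaks. Their H3K79me2 share lies near the 37.6% of all genes and is not a result about this list.

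**Figure D4:**
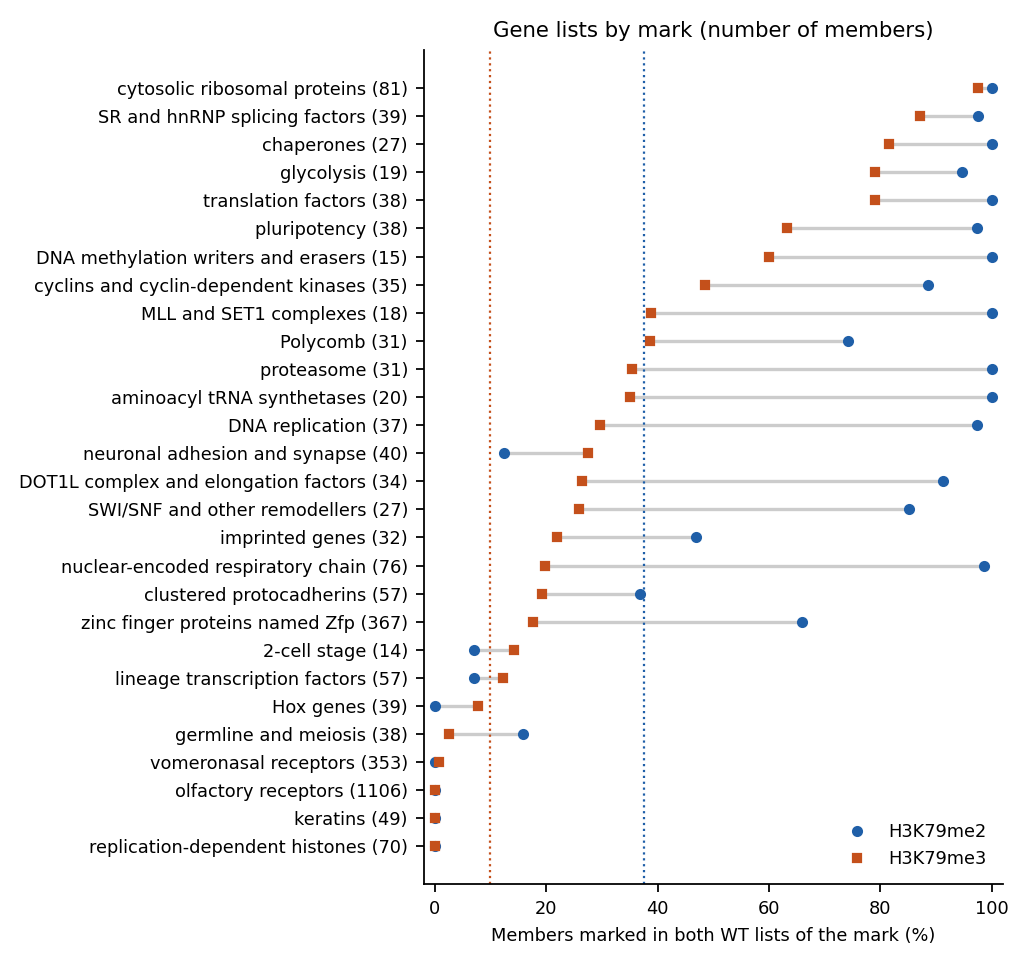
Share of members marked in both WT lists of a mark (horizontal axis, percent) for 28 gene lists (vertical axis, number of members in brackets); circles are H3K79me2 and squares H3K79me3. Dotted lines are the shares of all protein-coding genes, 37.6 and 9.96%; H3K79me3 falls from 79 of 81 ribosomal protein genes to 15 of 76 respiratory chain genes, whose H3K79me2 counts are 81 and 75. In the longer H3K79me3 list of replicate 1 alone (not drawn), the counts were 81 and 33.

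Genes with H3K79me3 alone were long, with a median of 61.9 kb against 24.7 kb for H3K79me2 alone, 25.3 kb for both and 11.9 kb for neither. Their median H3K79me3 cover was only 898 and 296 bp, or 1.24 and 0.52% of the body. H3K79me3 alone was on 0.31% of genes under 2 kb, 0.84 to 2.31% of those between, and 6.22% of genes of at least 100 kb. The call needs 1 bp of overlap, which a longer body can meet more easily, and the part of this was not tested. The 5 with the most H3K79me3 and no H3K79me2 peak were Tmem267 (6157 and 3726 bp), Sfi1 (4528 and 3569 bp), which encodes a centriole protein, Gpc6 (5935 and 699 bp) and Lsamp (4503 and 1250 bp), which encode a glypican and a neuronal adhesion protein, and Asmt (3088 and 1898 bp). Asmt lies in the pseudoautosomal region and Sfi1 has near-identical copies elsewhere, so these peaks are uncertain. Of 234 genes with H3K79me3 alone in which distances could be taken, 63 (26.9%) had H3K79me3 in the first 1 kb in both lists, against 601 of 1160 (51.8%) with both marks. Those 63 had CpG-rich promoters in 76.2%, close to the share with H3K79me2 alone, and CCGGAAG in 1.59% (1 of 63). Named after their values were seen, they included the immediate-early genes Jun (1403 and 735 bp) and Ier5 (1361 and 937 bp), Socs1 (811 and 628 bp), which encodes an inhibitor of cytokine signalling, and Cebpa (1214 and 690 bp), a factor gene of fat and myeloid cells, each with 0 bp of H3K79me2 in either list.

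RNA gave a readout that the peak lists did not use. KO and WT libraries, with totals of 26860390 to 33754956 counts, were compared with edgeR's quasi-likelihood test over 19532 genes, of which 22.3% were called higher and 21.6% lower in KO at an adjusted p under 0.05 (Benjamini-Hochberg). Nearly all marked genes passed the filter on low counts: 99.7% of those with H3K79me2 alone, 99.8% with both and 86.3% with H3K79me3 alone, against 67.2% with neither. Passing that filter is a weak sign of expression, since 50.6% of olfactory receptor genes passed it too. In all, 21113 of 21887 protein-coding genes were matched to the RNA table by symbol. The fit scales the libraries so that the typical gene lies near 0. Fold changes are therefore relative to other genes, and a shift shared by all genes would not be seen.

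Genes with both marks were lower in KO more often than genes with H3K79me2 alone. Of 1739 tested genes with both, 242 (13.9%) were called higher and 799 (45.9%) lower, with a median log2 fold change of -0.11. Of 6310 with H3K79me2 alone, 1214 (19.2%) were higher and 1924 (30.5%) lower, with a median of -0.04. Of 309 with H3K79me3 alone, 120 (38.8%) were higher and 37 (12.0%) lower, with a median of 0.26. Of 8523 with neither, 2563 (30.1%) were higher and 1023 (12.0%) lower, with a median of 0.14. Most of these changes were small: 46 of the 799 lower genes with both marks and 116 of the 1924 with H3K79me2 alone fell by 1 or more on the log2 scale. With KO replicate 2 alone the median of genes with both marks was -0.07, and with KO replicate 1 alone it was -0.14. No test of the differences between classes was made. Markers of cell state moved with the same comparison. The summed level of the 8 mESC markers was 4494, 4452 and 4433 CPM in WT and 3919 and 4060 CPM in KO, with 6 markers below and 2 above the WT range in both KO libraries. That of 4 neural markers was 164.2, 164.1 and 169.7 CPM against 122.1 and 129.7 CPM, with all 4 below. That of 4 endoderm markers was 6.17, 5.98 and 7.29 CPM against 10.0 and 9.66 CPM, with 2 above and 0 below. A place outside the WT range is not a called change. Sox1 and Esrrb, counted as below, had log2 fold changes of -0.073 and -0.074 and were not called (adjusted p 0.69 and 0.149, edgeR). The part of these marker shifts in the class medians was not tested.

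Many X-linked genes were lower in KO. Of 622 tested, 414 (66.6%) were called lower, 32 higher and 176 neither, with a median of -0.61, and of the 55 with both marks all 55 were lower. On the autosomes alone, 44.2% of 1684 genes with both marks and 28.4% of 6114 with H3K79me2 alone were lower, with medians of -0.10 and -0.03. Genes with H3K79me3 alone had a median of 0.29 there, and those with neither 0.16. The order of the 4 classes was thus the same without the X chromosome.

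**Figure D5:**
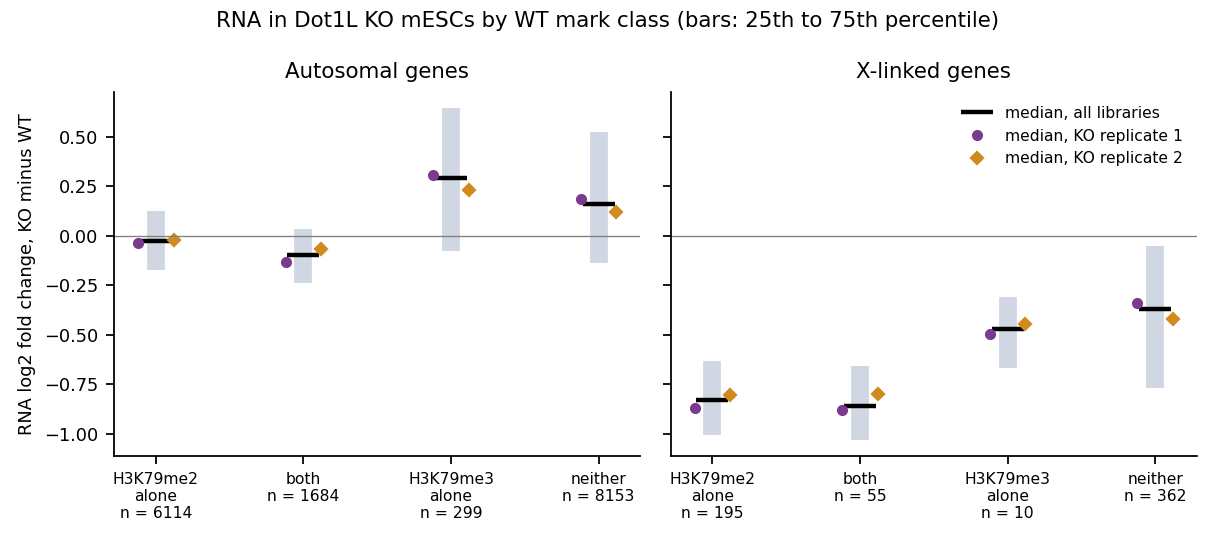
RNA log2 fold change, KO minus WT (vertical axis), of tested protein-coding genes by mark class in WT cells (horizontal axis), on autosomes and on the X chromosome. Bars span the 25th to 75th percentile of genes, black dashes are medians over all libraries, and points are medians with 1 KO library; autosomal medians were -0.10 with both marks and 0.29 with H3K79me3 alone.

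The amount of each mark was set beside the response. H3K79me2-marked genes were split into 5 groups of equal size by covered H3K79me2 bases. In the lowest group, 28 of 84 tested genes with both marks (33.3%) and 326 of 1503 with H3K79me2 alone (21.7%) were lower in KO. From the next group to the highest, the shares were 47.9, 48.9, 44.3 and 46.6% with both marks and 29.0, 30.8, 34.4 and 41.4% with H3K79me2 alone. Genes that also carried H3K79me3 were thus lower more often in each group, by the least in the highest. In that highest group the 2 KO libraries did not give the same order of medians. With KO replicate 1 alone the median was -0.147 with both marks and -0.103 with H3K79me2 alone. With KO replicate 2 alone it was -0.0686 and -0.0734. Among genes with both marks split in the same way by H3K79me3 bases, 36.9% of the lowest group and 52.0% of the highest were lower.

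The lists with frequent H3K79me3 mostly had more lower than higher genes, with an exception. Of all 16881 tested protein-coding genes, 22.4% were lower and 24.5% higher. Of 81 ribosomal protein genes 47 were lower and 1 higher (median -0.13), of 39 splicing factor genes 25 and 2 (-0.16), and of 38 pluripotency genes 28 and 4 (-0.35). Of 76 respiratory chain genes 13 (17.1%, under the share of all) were lower and 8 higher (-0.01). Of 37 DNA replication genes, 11 of them with H3K79me3, 17 were lower and 2 higher (-0.12). Glycolysis genes, of which 15 of 19 carried both marks, went the other way, with 10 higher and 3 lower (0.20). Hk2 and Slc2a1, which encode hexokinase 2 and a glucose transporter, rose by 0.48 and 0.55 on the log2 scale with 9258 and 8267 bp of H3K79me3 in replicate 1 (adjusted p 4.26e-07 and 1.49e-06, edgeR). Lists with few or no marked genes went both ways. Of 66 tested replication-dependent histone genes 43 (65.2%) were lower and 5 higher (-0.22). Of 559 olfactory receptor genes 79 (14.1%, under the share of all) were lower and 3 higher (-0.14). Of 35 tested Hox genes 2 were lower and 8 (22.9%, near the share of all) higher (0.38). Of 38 germline and meiosis genes 8 were lower and 25 (65.8%) higher (0.67). Going by the histone genes, frequent lower RNA was thus not particular to lists with frequent H3K79me3.

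RNA values follow for genes with the largest called changes among those chosen by the naming rule. Foxd3, a factor gene of pluripotent and neural crest cells that carried both marks, had 6.45, 6.46 and 6.27 CPM in the WT libraries and 1.26 and 1.69 CPM in the KO libraries. Its log2 fold change was -2.10 ± 0.16 (SE), with an adjusted p of 2.9e-07 (edgeR). Zfp978, also with both marks, had 157.6, 167.3 and 163.5 CPM in WT and 35.1 and 41.4 CPM in KO. The groups did not overlap for either gene, which adds no support because the genes were chosen for their large called changes.

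Tmem267, with H3K79me3 alone, had 3.19, 3.57 and 3.97 CPM in WT and 9.38 and 9.59 CPM in KO, a log2 fold change of 1.41 ± 0.12 (SE; adjusted p 8.1e-07, edgeR). Kdm6a, an X-linked gene of a histone demethylase that carried both marks, fell by 1.25 on the log2 scale, from 251.1, 256.7 and 255.5 CPM to 100.9 and 113.3 CPM. The WT and KO libraries of each of these genes were fully apart, which follows from the choice of genes by their called change. The members of a mark class changed in both directions.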

How the data were processed

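Peak lists of 4 WT and 4 KO ChIP libraries and RNA counts of 5 mESC libraries were used; embryo RNA and inputs were not analysed here. Per the submitters' processing notes, Bowtie2, MACS2, kallisto, STAR, HTSeq and mm10 were named without roles, and the control used for peaks is not given in the sources used here. Each deposited peak list gives the authors' score, fold enrichment (ratio) and −log10 q per peak, called per library. The deposited RNA values are estimated counts for each gene, made by the authors with a tool not given in the sources used here, and they were rounded to whole numbers.

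Peaks were placed on RefSeq genes of GRCm38.p6; strand came from the promoter table, and 4395 of 21887 protein-coding genes had none. RNA was fitted with edgeR 4.0.16 (filterByExpr, TMM, quasi-likelihood test, Benjamini-Hochberg, adjusted p under 0.05) in R 4.3.3, with DESeq2 1.42.0 as an alternative. Python 3.11.15 served the rest. Interval code and the fit were tested on simulated data. No per-sample column was left without a sample.

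Members and gene lists were chosen with earlier results of these data known. Named genes were, per mark, the 5 with the most covered bases, the 3 longest and 3 most enriched shared domains, the 5 with the highest H3K79me3 per H3K79me2, the 5 with H3K79me3 and no H3K79me2, up to 3 per list, and the 5 of these with the largest called RNA change. Some genes that this rule chose are not reported here. Wilson intervals describe counting error alone, and adjacent peaks depend on each other. Alternatives were stricter peaks, equal numbers of peaks, single replicates, removal of KO peaks, other joining gaps and overlaps, autosomes only, and other RNA fits. The limit to genes whose start matched the promoter table was chosen after seeing the data.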

Additional observations from a re-analysis of the deposited data

How the results depend on the processing

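The domain length ratio of H3K79me2 over H3K79me3 (3.03) was 3.25 with a −log10 q of at least 5, 7.94 with equal numbers of highest-scoring peaks, 1.58 without joining and 6.49 with peaks within 3 kb joined. The enrichment ratio (0.910) was 1.49 with equal numbers of peaks. The difference in in-gene sequence within 5 kb of the start (-30.9 percentage points) was -26.4 with equal numbers and -26.1 in a 2 kb window. H3K79me2-marked genes (8233) numbered 3464 with equal numbers of peaks. H3K79me3-marked genes (2179) numbered 1257 with a −log10 q of at least 5, 1262 with at least 500 bp covered, and 2251 to 5256 with single replicates. The share of them with H3K79me2 (82.5%) was 69.0% with equal numbers and 68.9 to 83.3% with single replicates. It was 87.5% with a −log10 q of at least 5 and 92.2% with at least 500 bp covered. As a paired analysis, with a replicate block, the ratios were 3.03 and 0.912 and the differences 24.4 and -30.9; shared numbers do not show that libraries are paired. In RNA, the replicate block gave 8159 called genes against 8566, and correlations of same-numbered libraries were 0.007 and -0.026. DESeq2 called 6261 and leaving out a WT library 7179 to 7490. The class medians kept their signs in all 40 alternatives. Every fit scales the libraries, with medians over all genes of -0.0096 to 0.0043. These signs are therefore relative to other genes, and no alternative could show a shift shared by all genes. Limits are the 2 libraries a mark, unknown ChIP depth, and an H3K79me3 call set by its shorter list; the causes of these shifts were not tested.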
